A study of Mus musculus with 7 samples.

Results

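The 37 genes described here are transcription factors, surface proteins and receptor signalling proteins of B cells, the lymphocytes that make antibodies. They were taken as a named list, matched by mouse symbol to the Ensembl identifiers of the deposited count table, and all 37 were found among its 49671 genes. Enough reads for a test were present for 36 of them, out of 17144 genes tested, and Fcrl5 was not tested. Messenger RNA came from whole crushed femurs of wild-type mice. The groups were 3 libraries from uninjured control mice and 4 libraries from mice that had received a traumatic brain injury (TBI) 3 days earlier. A controlled cortical impact was used, a blow of set depth and speed delivered by a piston to the cortex. The sources used here give no strain, age or sex, and do not say whether the control mice had surgery, so surgery and impact cannot be told apart. Separate mice are not stated for the numbered replicates, so the p-values refer to the spread among these libraries, which may be technical.

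B cells arise in bone marrow, so a crushed femur holds their precursors together with recirculating mature cells. EBF1 and PAX5 switch on and hold the B-cell program, including Cd79a and Cd79b, whose proteins carry the signal of the B-cell receptor into the cell. When the receptor is engaged, the kinases LYN, BLK, SYK and BTK and the adaptor BLNK pass that signal on, and surface proteins such as CD22 and CD72 restrain it. In a whole bone, fewer B cells and less RNA per B cell cannot be told apart.

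Some of the 37 genes are also made by other cells of bone and marrow. From textbook knowledge, but with earlier results of these data known, 16 were set down as largely of the B lineage in marrow. Of these, 15 were tested. The other 21 were set down as also made elsewhere, for example Ebf1 in stromal and fat cells, Cd24a in red-cell precursors, Btk and Dok3 in myeloid cells, and Spib and Pld4 in plasmacytoid dendritic cells. All 21 were tested.

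Promoter sequences are shown for 3 members, Cd79a, Cd22 and Blnk, which between them hold a match to each of the 3 motifs given below. All 3 had their lowest level in library TBI 3, as did 30 of the 36 tested members, so this does not set them apart. No link between a motif and a level was tested. Each runs from 250 bases before to 50 after the RefSeq start site on GRCm38.p6, 5′ to 3′ on the gene's strand. Capitals mark matches on either strand to the octamer ATGCAAAT bound by OCT2 (the product of Pou2f2, with Pou2af1 as its coactivator), to the EBF palindrome (TCCC and GGGA with any 2 bases between them) or to the PU box GAGGAA bound by PU.1 and SPIB.
Cd79a, chr7:24897247-24897546, plus strand: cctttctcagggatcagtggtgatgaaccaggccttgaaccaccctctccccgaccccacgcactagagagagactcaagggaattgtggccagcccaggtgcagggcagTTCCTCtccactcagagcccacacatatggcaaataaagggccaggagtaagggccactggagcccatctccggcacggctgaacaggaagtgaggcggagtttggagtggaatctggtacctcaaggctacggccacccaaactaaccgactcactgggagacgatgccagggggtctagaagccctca
Cd22, chr7:30878979-30879278, minus strand: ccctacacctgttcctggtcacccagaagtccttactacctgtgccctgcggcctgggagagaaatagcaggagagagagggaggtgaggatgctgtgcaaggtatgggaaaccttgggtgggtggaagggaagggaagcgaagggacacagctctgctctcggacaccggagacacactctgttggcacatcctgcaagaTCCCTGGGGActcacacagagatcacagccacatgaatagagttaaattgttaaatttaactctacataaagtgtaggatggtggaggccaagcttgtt
Blnk, chr19:40994172-40994471, minus strand: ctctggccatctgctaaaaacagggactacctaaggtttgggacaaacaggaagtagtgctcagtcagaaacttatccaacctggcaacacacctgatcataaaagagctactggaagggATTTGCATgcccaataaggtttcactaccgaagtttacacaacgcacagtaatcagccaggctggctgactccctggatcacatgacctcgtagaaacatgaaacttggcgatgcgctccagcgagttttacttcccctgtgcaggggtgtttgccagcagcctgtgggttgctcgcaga
The Cd79a window holds a PU box, the Cd22 window an EBF palindrome and the Blnk window an octamer. Windows were found for 27 of the 37 members (33 windows, since some genes have several starts). The octamer stood in 1 of the 33 (3.03%, against 1.74% of all 32851 promoter windows), and the EBF palindrome also in 1 (3.03%, against 0.904%). The PU box stood in 14 of the 33 (42.4%, against 28.3% of all windows). A match describes the letters only. Sites that depart from these letters were not searched for, so a window without a mark may still hold one.

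The libraries held 15461528 to 21783534 counts, and 1 count equals 0.0459 to 0.0647 CPM, the count relative to the library total, before scaling. Levels below are CPM scaled by TMM, which corrects for a few genes taking a large share of a library. A list of 8 bone and cartilage genes summed to 17539 to 29526 CPM in controls and 11617 to 15913 CPM after TBI. All 8 had counts in every library, but such counts could hardly be missing at this depth and are no check of the tissue. Every gene found of the lists for plasma, T, plasmacytoid dendritic, monocyte, neutrophil, erythroid, muscle and stromal cells also had counts in all 7 libraries. TBI 3 was the lowest of the 7 libraries for 30 of the 36 tested members, so the members' estimates are also given without it.

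The tested genes set down as largely of the B lineage had lower estimates after TBI, but none passed the test. Library TBI 3 was the lowest library for each of them. Their list was drawn up with earlier results of these data known, so the shared direction is a description and not a test. All 15 tested genes of the list had a log2 fold change (TBI minus control) below 0, with a median of −0.68 and quartiles of −0.77 and −0.39. Without TBI 3 the median was −0.43, and 13 of the 15 were lower. Over all 36 tested members, 27 had a lower estimate (75%, against 45.6% of all genes tested), with a median of −0.26 against 0.03 for all genes. That median was −0.06 without TBI 3 (21 of 36 lower), −0.12 without control 1, −0.42 without control 2 and −0.51 without TBI 1. In edgeR's quasi-likelihood test with Benjamini-Hochberg adjustment, 0 of the 36 members passed an adjusted p of 0.05 in either direction. Over all genes tested the percentage called was also 0. At an unadjusted p under 0.05 there were 0 members, against 7.34% of all genes, and DESeq2 called 0 members, against 0.567% of the genes to which it gave an adjusted p. The smallest adjusted p of a member was 0.691, for Fcmr.

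**Figure D1:**
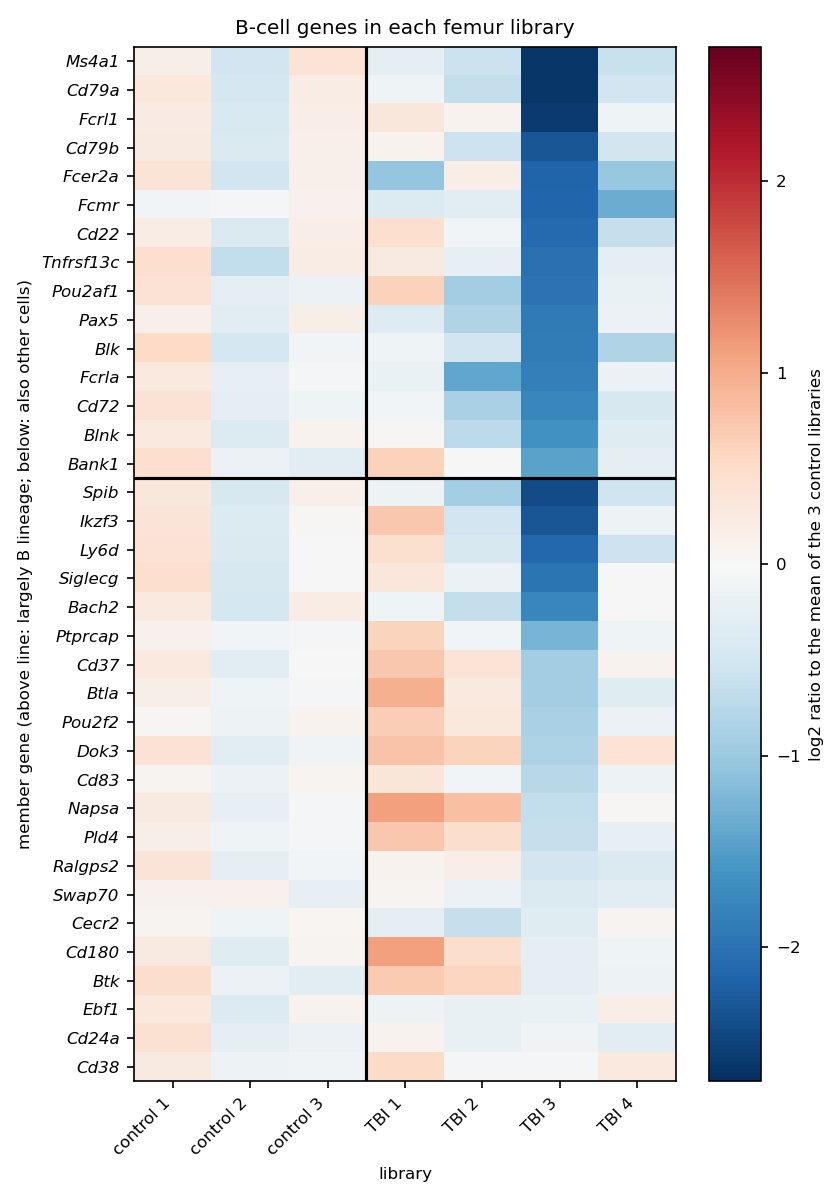
Each row is a tested member and each column a library; colour gives the log2 ratio of the library to the mean of the 3 controls (blue lower, red higher). The column of TBI 3 is the bluest, and the 15 genes largely of the B lineage (above the line) are below the controls there without exception.

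In TBI 3 all 15 tested B-lineage genes lay below every control, and in each of them TBI 3 was the lowest of the 7 libraries. Among all genes tested, 31.3% lay below every control in TBI 3 and 17.1% had their lowest value there. The 15 genes stood in TBI 3 at 14.9% (Fcrl1) to 34.6% (Bank1) of their control mean, with a median of 22.5%. Of the 21 members also made by other cells, 5 lay within that range of TBI 3 values: Spib, Ikzf3, Ly6d, Siglecg and Bach2, at 18% to 28.3%. The other 16 stood at 41.4% (Ptprcap) to 95.6% (Cd38). This grouping was read from the values.

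The other TBI libraries were closer to the controls and differed among themselves. In TBI 2, 10 of the 15 B-lineage genes lay below every control (23.5% of all genes tested did), with a median log2 ratio to the control mean of −0.56. In TBI 4 there were 8 of 15 (33.9% of all genes), at a median of −0.42. In TBI 1 there were 3 of 15 (26.7% of all genes), at a median of −0.07, and 4 lay above every control. The controls also differed, with medians of 0.27, −0.38 and 0.13 in controls 1 to 3.

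**Figure D2:**
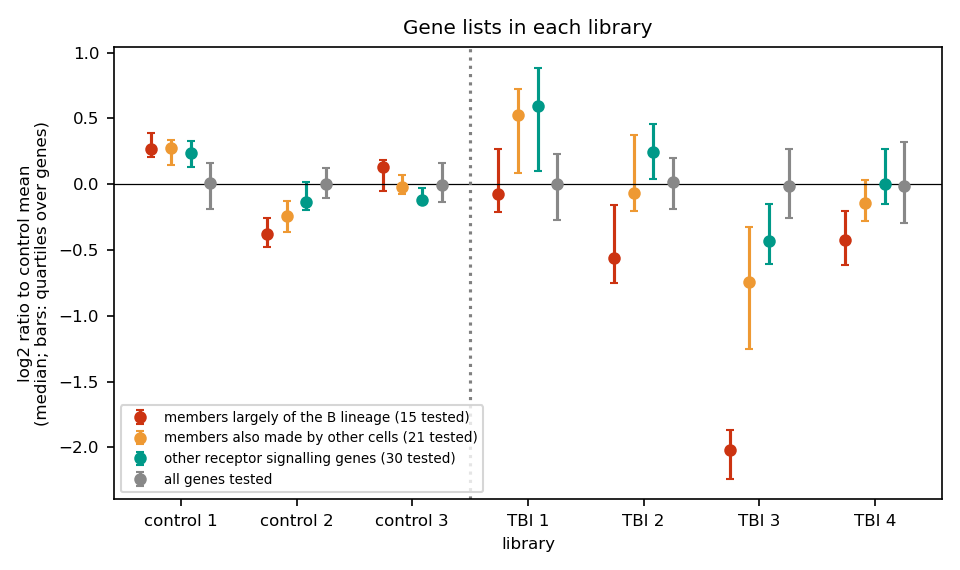
Points give the median log2 ratio to the control mean over the genes of a list in each library, and bars the quartiles over genes. The B-lineage members reach −2.02 in TBI 3, where the members also made by other cells stand at −0.75, the other receptor signalling genes at −0.43 and all genes tested at −0.01.

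Among the transcription regulators, the B-cell factor Pax5 and the cofactor Pou2af1 were lowest in TBI 3, while Ebf1 was not. Pax5, which holds B-cell identity (ENSMUSG00000014030, GRCm38 chromosome 4, 44524757 to 44710487, minus strand), measured 31.7, 23.4 and 32.2 CPM in controls 1 to 3 and 22.8, 16.5, 7.59 and 25.7 CPM in TBI 1 to 4. Of the TBI libraries, 3 lay below every control and TBI 4 lay within the control range. Its log2 fold change was −0.68 ± 0.35 (SE; edgeR adjusted p = 0.726), and −0.43 without TBI 3.

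Ebf1, the factor that starts the B-cell program (chromosome 11, 44617317 to 45008091, plus strand), measured 33.3, 21.2 and 29.2 CPM in controls and 24.9, 23.9, 24.2 and 31.2 CPM after TBI. All 4 TBI libraries lay within the control range, and its log2 fold change was −0.10 ± 0.17, or −0.07 without TBI 3. In TBI 3 the level of Ebf1 was 86.8% of the control mean and that of Pax5 26.1%. Stromal and fat cells also make Ebf1, and the list of 8 stromal and fat genes summed to 978 to 1165 CPM in controls and to 1158, 1096, 1418 and 1501 CPM in TBI 1 to 4. Their part in the Ebf1 level was not tested.

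Pou2af1, the B-cell coactivator of octamer-binding factors, measured 26.8, 17.1 and 18.1 CPM in controls and 31.1, 10.6, 5.04 and 18 CPM after TBI. TBI 1 was the highest of the 7 libraries and TBI 3 the lowest, and the log2 fold change was −0.35 ± 0.50. That estimate was −0.06 without TBI 3, −0.89 without TBI 1 and −0.12 without control 1. Spib, an ETS-family factor of B cells and plasmacytoid dendritic cells, measured 47.0, 28.2 and 42.3 CPM in controls and 34.8, 20.3, 7.05 and 26.5 CPM after TBI. TBI 2, TBI 3 and TBI 4 lay below every control. The fitted log2 fold change was −0.82 ± 0.44 (edgeR adjusted p = 0.726), and −0.53 without TBI 3.

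The remaining regulators were Bach2, a repressor that delays plasma cell formation, at a log2 fold change of −0.52 ± 0.38, and the Ikaros-family factor Ikzf3 at −0.24 ± 0.55. Pou2f2, which encodes OCT2, stood at 0.08 ± 0.32, and the chromatin gene Cecr2 at −0.26 ± 0.16. Cecr2 differed in its pattern: its lowest library was TBI 2 (24.5 CPM), and TBI 3 (30.1 CPM) was close to TBI 1 (31.9 CPM). Without TBI 3 the estimates were −0.27 for Bach2, 0.09 for Ikzf3, 0.29 for Pou2f2 and −0.24 for Cecr2. Without TBI 1 they were −0.67, −0.77, −0.18 and −0.27. Of the 8 regulators, 7 had a lower estimate, and 6 did without TBI 3.

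Both signalling chains of the B-cell receptor were lowest in TBI 3. Cd79a (ENSMUSG00000003379, chromosome 7, 24897381 to 24902197, plus strand) measured 44.8, 26.5 and 42.1 CPM in controls 1 to 3 and 33.8, 23.5, 5.91 and 25.6 CPM in TBI 1 to 4. Cd79b (ENSMUSG00000040592, chromosome 11, 106311341 to 106314762, minus strand) measured 37.7, 24.4 and 34.9 CPM in controls and 33.8, 21.5, 6.34 and 22.4 CPM after TBI. In both genes TBI 1 lay inside the control range and the other 3 TBI libraries lay below it, TBI 2 and TBI 4 by a small margin under control 2. The TBI 3 values rest on 109 and 117 counts.

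The log2 fold change was −0.77 ± 0.47 for Cd79a (edgeR adjusted p = 0.76) and −0.62 ± 0.44 for Cd79b (adjusted p = 0.763). Without TBI 3 these were −0.45 and −0.32, and without TBI 1 they were −1.04 and −0.94. Per kilobase of exon, the control level of Cd79a was 26.0 ± 6.76 CPM per kb (SD, n = 3) and that of Cd79b 22.6 ± 4.91 CPM per kb. Both were measured in the same libraries, so these SDs are not the spread of the difference between the 2 chains. That difference was not tested.

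**Figure D3:**
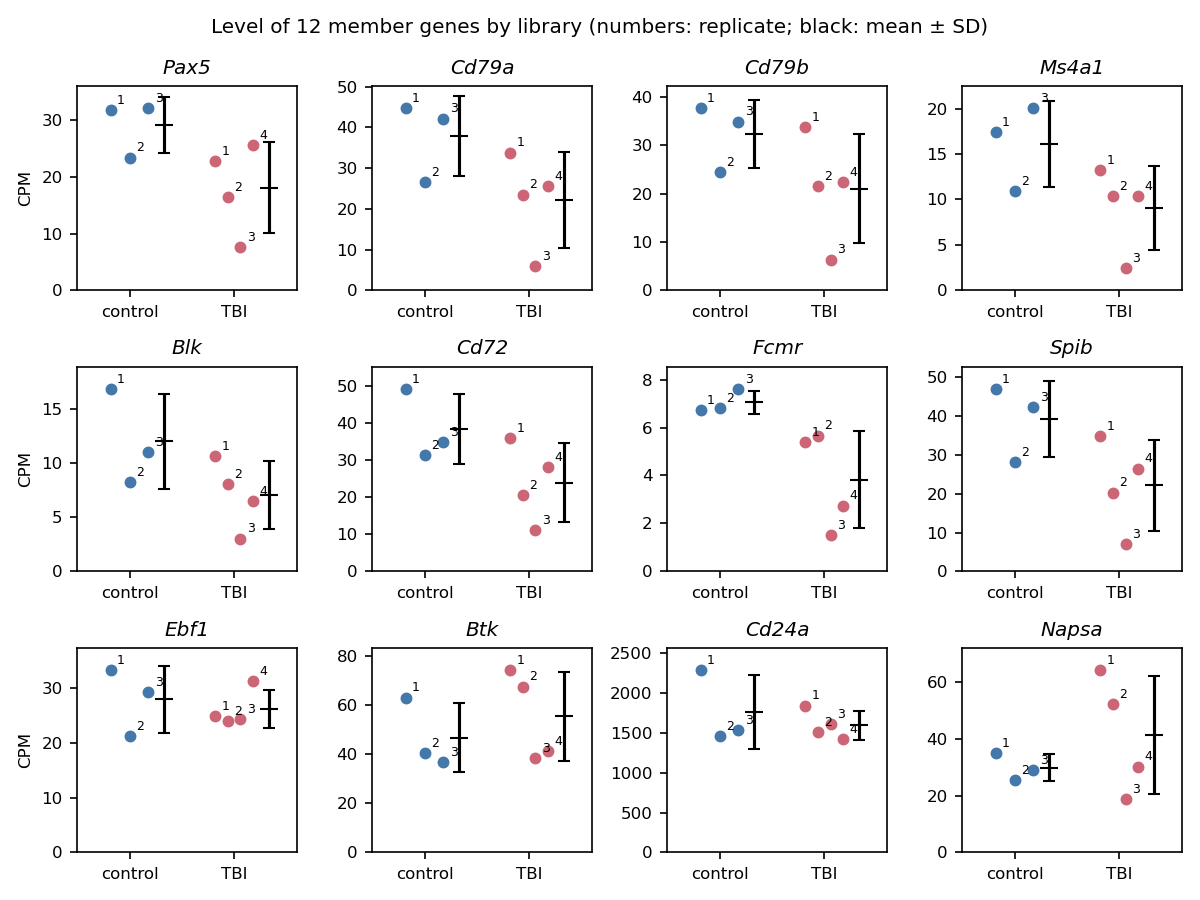
CPM of 12 members in each library, with the replicate number beside each point and the mean ± SD in black (n = 3 controls, n = 4 TBI). Pax5, Cd79a, Cd79b, Ms4a1, Blk, Cd72, Fcmr and Spib have TBI 3 as their lowest library, whereas Ebf1, Btk and Cd24a do not; Napsa is highest in TBI 1 and TBI 2.

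Of the 9 genes of the receptor complex and proximal signalling, 7 had a lower estimate with all libraries and 6 without TBI 3. Blk, a B-cell kinase of the Src family, measured 16.9, 8.26 and 11 CPM in controls and 10.6, 8.05, 3.04 and 6.53 CPM after TBI. TBI 2, TBI 3 and TBI 4 lay below every control, and control 1 stood above the other 6 libraries. Its log2 fold change was −0.77 ± 0.39 (edgeR adjusted p = 0.725), and −0.52 without TBI 3 or −0.44 without control 1.

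Blnk, the adaptor that couples SYK to its targets in B cells, measured 19.6, 12.5 and 17.4 CPM in controls and 16.5, 9.92, 5.15 and 12.9 CPM after TBI. TBI 2 and TBI 3 lay below the controls and TBI 1 and TBI 4 within them (log2 fold change −0.57 ± 0.35, adjusted p = 0.76 in edgeR, and −0.33 without TBI 3). Btk encodes the kinase mutated in X-linked agammaglobulinaemia and is also made by myeloid cells. It measured 63.0, 40.5 and 36.8 CPM in controls and 74.3, 67.6, 38.5 and 41.1 CPM after TBI. TBI 1 and TBI 2 lay above every control, and TBI 3 and TBI 4 lay within the control range. The log2 fold change of Btk was 0.24 ± 0.28, or 0.38 without TBI 3 and 0.07 without TBI 1.

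The scaffold Bank1 was at −0.13 ± 0.43, Ralgps2, an exchange factor for Ral GTPases, at −0.15 ± 0.22, and Swap70, a protein of the actin cytoskeleton in B cells, at −0.18 ± 0.15. Dok3, an adaptor that dampens receptor signals, was at 0.32 ± 0.34 and stood above every control in TBI 1 and TBI 2, at 119 and 107 CPM, but below every control in TBI 3, at 39.2 CPM. Without TBI 3 the estimates were 0.13 for Bank1, −0.04 for Ralgps2, −0.11 for Swap70 and 0.56 for Dok3. Without TBI 1 they were −0.49, −0.23, −0.28 and 0.15.

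Among the surface proteins, Fcmr was the only one of the 36 tested members in which every TBI library lay below every control, against 5.38% of all genes tested. No member had every TBI library above every control (2.66% of all genes). Fcmr, the Fc receptor for IgM (ENSMUSG00000042474, chromosome 1, 130865669 to 130880791, plus strand), measured 6.72, 6.81 and 7.61 CPM in controls and 5.39, 5.66, 1.52 and 2.74 CPM after TBI. Its log2 fold change was −0.87 ± 0.40 (edgeR adjusted p = 0.691), with 28 counts in TBI 3, and −0.61 without TBI 3. The number of members separated in this way was 10 without control 2, 8 without TBI 1, 3 without TBI 4, 2 without control 3 and 2 without TBI 2. With a library left out, any gene is separated more easily. The shares of all genes in these sets are not given, so these counts cannot be read as particular to the members.

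Ms4a1, which encodes CD20, the target of B-cell depleting antibodies (chromosome 19, 11249675 to 11266241, minus strand), measured 17.4, 10.9 and 20.1 CPM in controls and 13.2, 10.4, 2.44 and 10.3 CPM after TBI. TBI 3 was the lowest library, and TBI 2 and TBI 4 lay just under control 2. Ms4a1 had a log2 fold change of −0.82 ± 0.46 (edgeR adjusted p = 0.743), and −0.51 without TBI 3.

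CD22 and CD72 are inhibitory co-receptors that recruit the phosphatase SHP-1. Cd72 measured 49.1, 31.3 and 34.8 CPM in controls and 35.8, 20.5, 11.1 and 28.1 CPM after TBI, so that 3 of the 4 TBI libraries lay below every control. The estimate for Cd72 was a log2 fold change of −0.69 ± 0.35 (edgeR adjusted p = 0.72), and −0.45 without TBI 3. The exons of Cd72 share 1423 bases with Tesk1 on the other strand. Cd22 measured 23.0, 15.4 and 22.9 CPM in controls and 27.6, 19.0, 4.61 and 13 CPM after TBI. TBI 1 was its highest library and TBI 3 its lowest, and the log2 fold change of −0.35 ± 0.48 became −0.04 without TBI 3. Siglecg, a further inhibitory receptor of this family, likewise went from −0.28 ± 0.45 to 0.02 without TBI 3.

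The receptors of mature B cells varied widely between TBI libraries. Fcer2a, which encodes the low-affinity IgE receptor CD23, measured 7.45, 3.97 and 6.26 CPM in controls and 2.69, 6.51, 1.19 and 2.74 CPM after TBI. Every TBI library except TBI 2 lay below the controls (log2 fold change −0.84 ± 0.49, adjusted p = 0.75 in edgeR, and −0.56 without TBI 3). Tnfrsf13c, the receptor for the survival factor BAFF, measured 8.62, 3.91 and 7.19 CPM in controls and 7.39, 5.32, 1.46 and 5.27 CPM after TBI. For Tnfrsf13c only TBI 3 lay outside the control range, and its log2 fold change was −0.44 ± 0.47, or −0.14 without TBI 3.

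The Fc receptor-like genes did not share a single pattern. Fcrla was at −0.74 ± 0.41 and Fcrl1 at −0.26 ± 0.54, and without TBI 3 they were at −0.50 and 0.08. Fcrl5 had 6, 0 and 1 counts in controls 1 to 3 and 44, 9, 1 and 6 counts in TBI 1 to 4, too few for the filter. The TBI 1 library thus held most of the Fcrl5 counts.

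Cd24a and Cd38, surface proteins of many cell types, showed no low value in TBI 3. Cd24a measured 2292, 1458 and 1536 CPM in controls and 1843, 1506, 1610 and 1420 CPM after TBI, with TBI 4 just under the lowest control (log2 fold change −0.14 ± 0.22, and −0.15 without TBI 3). Per kilobase of exon it was the most abundant member, at 683 ± 179 CPM per kb in controls (SD, n = 3), and the next was Dok3 at 29.1 ± 7.2. Red-cell precursors also make Cd24a, and the 9 erythroid genes found summed to 44830 to 51659 CPM in controls and 23294 to 32724 CPM after TBI. Their part in the Cd24a level was not tested.

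Cd38, an enzyme that consumes NAD, measured 17.4, 13.3 and 13.7 CPM in controls and 21.2, 14.1, 14.2 and 17.7 CPM after TBI, with TBI 1 and TBI 4 above every control (log2 fold change 0.18 ± 0.19, and 0.25 without TBI 3). Cd180, a Toll-like receptor relative of B cells and macrophages, measured 8.03, 5.36 and 7.14 CPM in controls and 14.7, 9.37, 5.59 and 6.22 CPM after TBI. TBI 1 and TBI 2 lay above the controls and the other TBI libraries among them (log2 fold change 0.39 ± 0.34, edgeR adjusted p = 0.774, and 0.56 without TBI 3). Without TBI 1 the estimates were 0.05 for Cd38 and 0.05 for Cd180. Cd180 shares 182 exon bases with Mast4 on the other strand.

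The tetraspanin Cd37 was at 0.16 ± 0.34, the inhibitory receptor Btla at 0.16 ± 0.38, the activation marker Cd83 at −0.12 ± 0.25 and Ly6d, an early marker of B-lineage commitment, at −0.45 ± 0.48. Ptprcap, which binds the phosphatase CD45, was at −0.07 ± 0.35. Without TBI 3 these 5 stood at 0.40, 0.39, 0.05, −0.16 and 0.18. Without TBI 1 they stood at −0.07, −0.26, −0.30, −0.90 and −0.39. The Ptprcap value is uncertain because its exons share 432 bases with Coro1b on the same strand and 1224 bases with Rps6kb2 on the other.

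Napsa and Pld4, a lysosomal protease and an endolysosomal nuclease of immune cells, had higher estimates. Napsa measured 35.0, 25.4 and 29.0 CPM in controls and 64.2, 52.1, 18.7 and 30.2 CPM after TBI. TBI 1 and TBI 2 lay above every control and TBI 3 below. Its log2 fold change of 0.47 ± 0.38 was the highest of the members (edgeR adjusted p = 0.771), and 0.71 without TBI 3. Pld4 was at 0.18 ± 0.30, and 0.37 without TBI 3. Without TBI 1 the estimates were 0.18 for Napsa and −0.06 for Pld4.

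**Figure D4:**
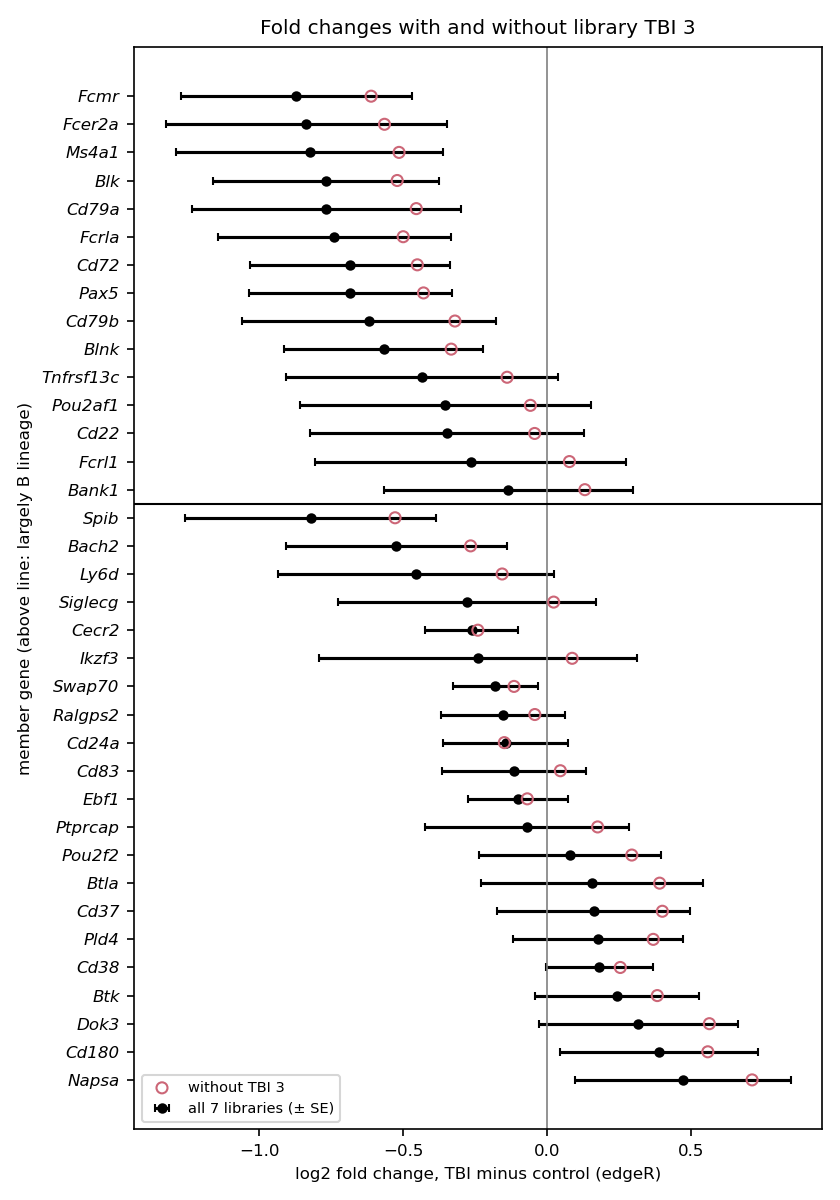
Filled points are log2 fold changes (TBI minus control) ± SE from all 7 libraries, and open circles the estimates without TBI 3, for the 36 tested members. Above the line, the 15 B-lineage genes all lie below 0 with every library and 13 do without TBI 3; below the line the estimates run from −0.82 (Spib) to 0.47 (Napsa).

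Members also made by other cells had estimates on both sides of 0: 12 of 21 were lower, with a median of −0.10. Without TBI 3, 8 of 21 were lower, at a median of 0.09. Without TBI 1, 16 of 21 were lower, at a median of −0.23. In TBI 1, 13 of these 21 were at their highest of the 7 libraries, against 20.5% of all genes tested, and 4 of the 15 B-lineage genes were. The 10 neutrophil genes summed to 12044 CPM in TBI 1 and 7924 CPM in TBI 2, against 2913 to 4724 CPM in controls, 2086 CPM in TBI 3 and 6509 CPM in TBI 4. The 8 monocyte and macrophage genes summed to 877, 676, 403 and 468 CPM in TBI 1 to 4, against 428 to 550 CPM in controls. The part of these cells in the shared members was not tested.

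Other genes of B-cell receptor signalling, from a list of 30, had mostly higher estimates. Of the 30, all tested, 7 were lower and 23 higher, at a median of 0.14. In edgeR 0 passed the adjusted threshold, 0 did so unadjusted at 0.05, and 0 were called by DESeq2. Most of these genes are widely made by blood cells, and 22 of the 30 were highest in TBI 1. Without TBI 1 the median was −0.03, with 17 of 30 lower, and without TBI 3 it was 0.27, with 5 lower. Syk was at 0.05 ± 0.30, Sos1 at 0.27 ± 0.13, Vav2 at −0.31 ± 0.16 and Grb2 at 0.21 ± 0.12. Ptprc, which encodes the pan-leukocyte phosphatase CD45, measured 125, 80.8 and 77.5 CPM in controls and 242, 142, 59.4 and 123 CPM after TBI. In TBI 3 it was the lowest of the 7 libraries, and in TBI 1 and TBI 2 it was above every control.

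Rag1, Vpreb3 and Ighd, from the lists of precursor and mature B-cell genes, each had their lowest level in TBI 3. Rag1, which encodes a subunit of the V(D)J recombinase, measured 14.0, 5.61 and 9.96 CPM in controls and 7.08, 2.09, 1.63 and 7.17 CPM after TBI. Vpreb3, a precursor protein, measured 14.7, 8.26 and 11.4 CPM in controls and 8.04, 2.81, 1.74 and 9.64 CPM after TBI. For both, TBI 2 and TBI 3 lay well below the controls. Ighd, the IgD heavy chain of mature naive B cells, measured 28.2, 19.6 and 27.7 CPM in controls and 24.2, 30.7, 4.83 and 20.2 CPM after TBI. Here TBI 2 was the highest library and TBI 3 the lowest, and no difference between precursor and mature genes was tested. The 5 tested B-lineage members that did not lie below the controls in TBI 2 were Cd22, Bank1, Fcer2a, Tnfrsf13c and Fcrl1, read off after the values were seen.

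Of the 15 precursor genes, 14 were tested and 10 had a lower estimate (median −0.22, or −0.06 without control 1, −0.14 without TBI 3). In edgeR 0 passed the adjusted threshold, 1 gene had a raw p under 0.05 (7.34% of all genes tested did), and 0 were called by DESeq2. That gene was Erg, at 0.35 ± 0.12 with every TBI library above every control (2.66% of all genes). The cells that made it were not tested. Rag1 stood at −1.14 ± 0.55 and Vpreb3 at −1.04 ± 0.53, and without TBI 3 at −0.87 and −0.75. Of the 15 mature B-cell genes, 8 had a lower estimate (median −0.01). Without TBI 3 there were 5 (median 0.17) and without TBI 1 there were 13 (median −0.29). In this list 0 passed in edgeR, 0 had a raw p under 0.05, and 0 were called by DESeq2. Zfp318, a regulator of IgD expression, stood at −0.26 ± 0.15.

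Other cell markers were read beside the low B-cell values of TBI 3. The 10 skeletal muscle genes summed to 17475, 33902 and 59121 CPM in controls and to 20719, 32683, 85338 and 107519 CPM in TBI 1 to 4. The sum was highest in TBI 4, and the part of muscle mRNA in the B-cell values was not tested. Between TBI 3 and TBI 4, all 15 B-lineage genes were lower in TBI 3, at a median of −1.69 on the log2 scale (TBI 3 minus TBI 4). The 9 T-cell genes summed to 36.8 to 40.7 CPM in controls and to 52.2, 36.5, 29.7 and 25.9 CPM in TBI 1 to 4, so they were lowest in TBI 4. The 8 plasma cell genes summed to 186 to 220 CPM in controls and to 416, 251, 180 and 185 CPM after TBI. The 7 plasmacytoid dendritic cell genes summed to 272 to 404 CPM in controls and to 334, 365, 448 and 531 CPM after TBI. Of these 7, Cox6a2, which muscle also makes, supplied 308 CPM in TBI 3 and 360 CPM in TBI 4. Taken gene by gene, the 7 had median log2 ratios to the control mean of 0.36, −0.08 and −0.20 in controls 1 to 3. In TBI 1 to 4 these medians were 0.86, 0.33, −0.37 and −0.09. TBI 3 was the lowest library for 4 of the 7, against 17.1% of all genes tested. All 10 neutrophil genes were lowest in TBI 3, and the part of these cells in the B-cell values was not tested.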

How the data were processed

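Poly(A) RNA libraries were made with a stranded kit from femurs crushed in Trizol, per the labels' protocols. The authors deposited raw read counts per gene; per the submitters' processing notes STAR, DESeq and GRCm38 were used (no versions). Neither the counting program nor how it used strand or shared reads is stated, so overlapping genes are uncertain. A deposited table of normalized values was not used.

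Symbols, positions and exon-union lengths came from GENCODE M21 (GRCm38), which matched 49412 of 49671 identifiers (99.5%). Counts were filtered with filterByExpr and scaled by TMM, and TBI was compared with control by edgeR 4.0.16 (glmQLFit, glmQLFTest; R 4.3.3) over all 17144 genes, adjusted by Benjamini and Hochberg's method (threshold 0.05). The SE is the estimate divided by the square root of F. Log2 ratios to the control mean use a prior count of 2. No 2 libraries of a group agreed within sampling noise (chi-square per degree of freedom at least 27.2). The procedure was tested on simulated counts. At the adjusted threshold it recovered 4.5% of 1.5-fold changes, 31.2% of 2-fold changes and 89.1% of 4-fold changes. A member that was not called may therefore still have changed.

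The members and lists were chosen with earlier results of these data known. The full-value genes were a fixed set of 16 plus the 3 members with the smallest p and the 2 with the largest fold change in each direction. From other lists, Ptprc, Syk, Rag1 and Ighd and up to 3 genes with the smallest p were named; some genes this rule names are not reported here. Alternatives were RLE and upper quartile scaling, no filter, 1 CPM in 3 libraries, DESeq2 1.42.0, limma-voom (limma 3.58.1), the replicate number as a block, a looser threshold (0.1) and leaving out every library in turn. Promoters came from RefSeq; protein sequences were not used here.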

Additional observations from a re-analysis of the deposited data

Results flagged for a closer look

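By Dixon's ratio on CPM, Ebf1 was the only tested member whose highest or lowest TBI library was marked as far from the other 3. TBI 3 was marked in no member. On CPM a low value is bounded by 0, and the spread of the other 3 libraries enters the ratio. A library left unmarked need not be close to the others: the B-lineage members had a median log2 ratio to the control mean of −2.02 in TBI 3. TBI 4 had 31.2 CPM of Ebf1, and its gap to the next library was 0.862 of the range of the 4, above Dixon's 95% critical value for 4 samples. Chance marks about 1 in 20 groups, and 36 members were examined. TBI 4 lay within the control range of 21.2 to 33.3 CPM.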

How the results depend on the processing

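No member passed the adjusted threshold of 0.05 under any alternative, and the smallest adjusted p of a member was 0.19, with the replicate number as a block. Over all genes, DESeq2 called 84 genes where edgeR called 0. With each library left out in turn, the members with every TBI library below every control numbered 1 to 10. No share of all genes is given beside these counts. In the leave-one-out fits the median log2 fold change of all members ran from −0.51 to −0.06. That of the B-lineage members ran from −0.89 to −0.43. The medians were −0.50 and −0.80 in limma-voom. Pou2f2 turned from 0.08 to −0.00012 in limma-voom, the only reversal among 252 member estimates outside the leave-one-out fits. Leaving out 1 library reversed 15 of 252 estimates, in 13 genes. Their ranges were −0.26 to 0.0438 for Ebf1, −0.49 to 0.14 for Bank1, −0.26 to 0.0908 for Cd24a, −0.28 to 0.0377 for Ralgps2, −0.074 to 0.40 for Cd37, −0.18 to 0.29 for Pou2f2, −0.0594 to 0.37 for Pld4 and −0.26 to 0.39 for Btla. They were −0.77 to 0.0872 for Ikzf3, −0.50 to 0.0776 for Fcrl1, −0.52 to 0.0229 for Siglecg, −0.30 to 0.0462 for Cd83 and −0.39 to 0.18 for Ptprcap. The causes were not tested.

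Same-numbered libraries did not all deviate together (correlations of 0.79, −0.09 and 0.55 for numbers 1 to 3), and a batch shared by number was not tested. Control and TBI libraries of different number had correlations from −0.74 (control 3 with TBI 1) to 0.75 (control 3 with TBI 4). The labels do not say that the number pairs libraries, so it is not taken as a pairing. With it as a block, 0 members and 0 of all genes passed, the members' median was −0.50 and that of the B-lineage members −0.85. Then 10 members had an unadjusted p under 0.05, 9 of them lower, against 11.1% of all genes tested. Members with fewer than 10 CPM rest on as few as 15 counts in TBI 3 (Fcrl1), which limits their precision.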
